A study of Mus musculus with 2 samples.

Results

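The 38 genes described here copy the genome. They encode the helicase that opens DNA, the factors that load it, the polymerases, clamp and ligase that build the new strands, the enzymes that supply nucleotides and histones, and the regulators E2f1 and cyclin E2. The set was fixed by gene symbol, and the count tables listed all 38 among 28692 genes. The question was whether these genes were used more or less as blood progenitors entered the T cell lineage, and whether any of them departed from the rest.

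The cells came from wild type CD1 mouse embryos at E13.5. Fetal liver was depleted of TER-119 positive erythroid cells, Sca-1+ cKit+ stem and progenitor cells (HSPCs) were sorted from it, and these were seeded on plates coated with DL4, a Notch ligand, at 10 µg/mL and the adhesion molecule VCAM-1 at 2.32 µg/mL. The 2 droplet libraries, FL001 and FL002, carry the same labels. The study pooled cells captured right after the sort with cells captured after different lengths of culture, and which of these a library holds is not stated, so gate and time of capture cannot be told apart. Each library is 1 sample, and an exact two-sided sign test over 2 libraries cannot go below p = 0.5, so no test was made between gates and each value is given for both libraries side by side.

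DNA replication is prepared in G1, when Cdc6 and Cdt1 load the ring of Mcm2 to Mcm7 onto origins, and starts in S phase, when Cdc45 and the GINS proteins turn the ring into a moving helicase. The transcription factor E2F drives many of these genes at the passage from G1 to S, and their transcripts decline again toward mitosis. T cell precursors divide repeatedly while Notch signaling brings on *Il2ra*, *Cd3g* and then *Bcl11b*, the factor of T cell commitment.

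Barcodes were kept with at least 1500 unique molecular identifiers (UMIs), at least 500 genes and no more than 10% of UMIs from mitochondrial genes, which left 1788 in FL001 with a median of 7722 UMIs and 4100 in FL002 with a median of 4752.5 UMIs. Depth ran from 1559 to 27025 UMIs and from 1510 to 17589 UMIs. The libraries had 10 barcodes in common, and leaving these out moved no summed share and no count of genes beyond its counting error. Barcodes were sorted into 5 gates by raw UMIs. The progenitor gate held at least 2 UMIs of *Lmo2* plus *Mef2c* and at most 1 of *Cd3g*; the pre-Cd3g gate held at most 2 of *Cd3g* and at most 1 of *Lmo2* plus *Mef2c*; the Cd3g gate held at least 3 of *Cd3g* and 0 of *Il2ra*; the Il2ra gate held at least 1 of *Il2ra*; and the commitment gate held at least 2 of *Ptcra*, *Lef1* and *Bcl11b* together. In this order the gates held 428, 381, 327, 738 and 451 barcodes in FL001 and 724, 1134, 873, 1668 and 501 in FL002. Gates overlapped, with 275 and 291 barcodes in both the Il2ra and the commitment gate, 168 and 198 in both the Cd3g and the commitment gate, and 75 and 276 in both the pre-Cd3g and the Il2ra gate. Another 6 and 13 barcodes met no gate. A list of 8 progenitor markers summed to 1097 and 1139 CPM (the UMIs of a gene per 1000000 UMIs of the gate) in the progenitor gate of FL001 and FL002 and to 87.6 and 85.3 CPM in the commitment gate, and a list of 10 T lineage markers to 58.6 and 86.1 CPM against 5878 and 5635 CPM. Both lists contain genes that define gates. The gates are kept in this listed order, and a step or path below is not a passage in time. Commitment genes were higher in the Cd3g than in the Il2ra gate. *Ptcra*, *Lef1* and *Bcl11b* had 150, 179 and 57.0 CPM in the Cd3g gate of FL001, against 87.4, 116 and 52.2 CPM. In FL002 they had 110, 61.6 and 41.6 CPM against 84.8, 33.4 and 34.3 CPM. The step from the Cd3g to the Il2ra gate therefore did not run toward commitment by these genes.

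The replication genes took nearly the same share of the transcriptome at every gate. Together they had 76513 UMIs, or 0.506% of all UMIs in kept barcodes, in FL001 and 95009 UMIs, or 0.446%, in FL002. In FL001 their share was 0.463% in the progenitor gate, 0.516% in the pre-Cd3g gate, 0.532% in the Cd3g gate, 0.519% in the Il2ra gate and 0.517% in the commitment gate. In FL002 the shares in the same order were 0.423%, 0.462%, 0.468%, 0.439% and 0.457%. The progenitor gate was the lowest and the Cd3g gate the highest in both libraries, and the distance between them was small.

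The step from the progenitor to the pre-Cd3g gate was 1.11-fold (95% exact interval, 1.09 to 1.14) in FL001 and 1.09-fold (1.07 to 1.11) in FL002. All intervals cover counting error only and say nothing of the spread between cultures. Those of summed shares and folds also leave out the spread between barcodes. The interval of a fold takes the counts of both gates as separate. This does not hold from the Il2ra to the commitment gate, which shared 275 and 291 barcodes. The next steps were 1.03-fold and 1.01-fold from the pre-Cd3g to the Cd3g gate, 0.976-fold and 0.939-fold from the Cd3g to the Il2ra gate, and 0.995-fold and 1.04-fold from the Il2ra to the commitment gate. From the progenitor to the commitment gate the share was 1.12-fold (1.09 to 1.14) and 1.08-fold (1.05 to 1.11). The libraries had the first 3 steps and the whole path in the same direction and differed at the last step. The interval took in 1 at the second step of FL002 (0.993 to 1.03) and at the last step of FL001 (0.978 to 1.01). With each barcode in its latest gate only, the third step of FL001 turned to 1.02-fold, and with gates set on barcodes thinned to 1500 UMIs, the last step of FL002 turned to 0.96-fold. Within a gate the spread from barcode to barcode was much wider than between gates. The share in single barcodes of the FL001 progenitor gate had a median of 0.429% and ran from 0.204% at the 10th to 0.757% at the 90th percentile.

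**Figure D1:**
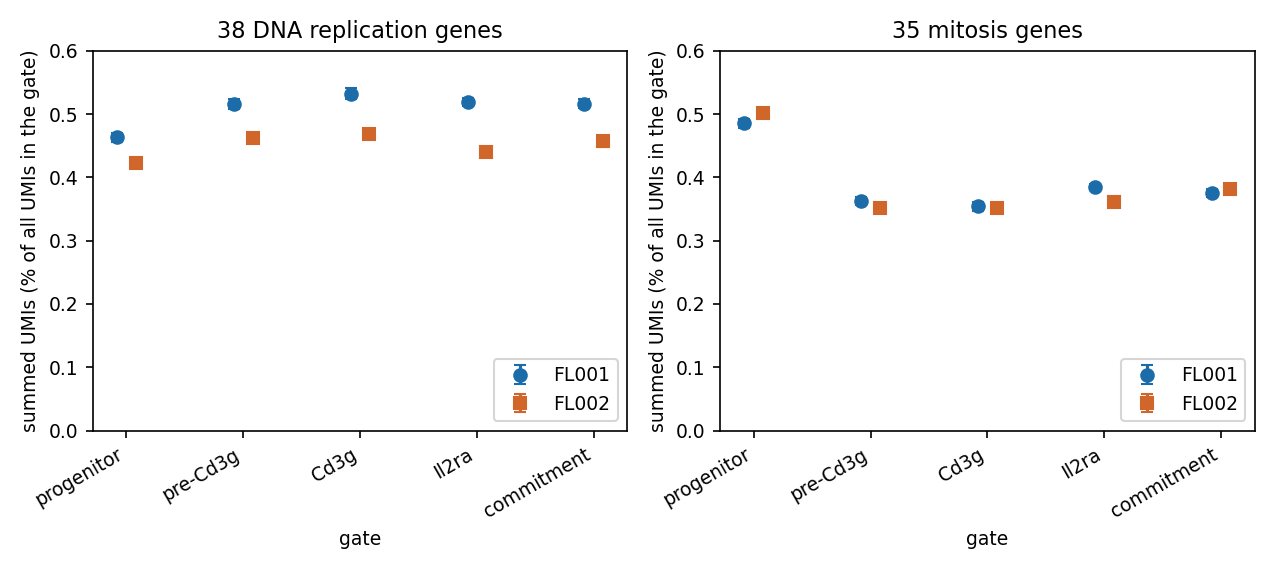
Summed UMIs of the 38 DNA replication genes (left) and of 35 mitosis genes (right) as a percent of all UMIs in each of the 5 gates, with FL001 as circles and FL002 as squares and bars for 95% exact Poisson intervals, several smaller than the symbols. The replication share was lowest in the progenitor gate, at 0.463% and 0.423%, where the mitosis share was highest, at 0.486% and 0.502%.

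Other measures moved with this difference. A list of 35 mitosis genes took 0.486% and 0.502% of UMIs in the progenitor gate against 0.351% to 0.384% in the other gates of both libraries, whereas 56 further replication genes took 0.524% to 0.576% in every gate. The 10 neutrophil and monocyte markers summed to 2637 and 1772 CPM in the progenitor gate and to 3993 and 1328 CPM in the pre-Cd3g gate, against 343 to 653 CPM in the later gates. The 6 megakaryocyte markers summed to 672 and 341 CPM in the progenitor gate and to 9.29 to 52.6 CPM elsewhere. The 8 erythroid markers reached 313 and 720 CPM in the first 2 gates of FL001, and 20.9 and 9.52 CPM in those of FL002, where *Hba-a1* and *Hba-a2* were at 0 in the progenitor gate. A removal chosen after the data were seen took out the 374 and 398 barcodes with at least 5 UMIs of defining markers of these lineages. Of these, 226 and 244 came from the progenitor gate. The first step was then 1.08-fold in FL001, and the share in the progenitor gate remained the lower of the pair in both libraries. The planned removal, of barcodes with at least 3 UMIs of other-lineage markers, was wider. It left 67 of 428 progenitor and 90 of 381 pre-Cd3g barcodes in FL001, and 246 of 724 and 535 of 1134 in FL002. The first step was then nearer 1 in both libraries, at 1.02-fold in FL001. The share also moved with depth. Pre-Cd3g barcodes of FL001 had a share of 0.29% at 1500 to 3000 UMIs and 0.566% at 12000 UMIs and above. Progenitor barcodes had lower shares in their deepest class than in the class before it, 0.443% at 12000 UMIs and above against 0.493% at 6000 to 12000 in FL001, and 0.418% at 6000 to 12000 against 0.457% at 3000 to 6000 in FL002. At 3000 to 6000 UMIs in FL002 the progenitor share of 0.457% (0.447 to 0.468) was not below the pre-Cd3g share of 0.453% (0.444 to 0.462), so the first step was not seen in that class.

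A fixed count of replication UMIs per barcode put the progenitor gate first only before depth was made equal. Barcodes with at least 15 replication gene UMIs made up 85.0% (81.3 to 88.3) of the progenitor gate in FL001, and 77.7%, 79.2%, 76.7% and 71.8% of the following gates. In FL002 the progenitor gate again led, with 73.2% (69.8 to 76.4), ahead of 66.2%, 60.6%, 59.1% and 60.5%. The progenitor gate was also the deepest, with a median of 8014.5 UMIs in FL001 and 5649.5 in FL002, against 6998 and 4175 UMIs in the commitment gate. For thinning to 3000 UMIs, shallower barcodes were left out. These were 11, 40, 23, 30 and 34 barcodes along the gates of FL001 and 69, 221, 214, 334 and 130 in FL002. When each remaining barcode was thinned at random, the shares became 42.0%, 50.1%, 51.3%, 49.3% and 49.6% in FL001 and 39.2%, 47.1%, 45.7%, 39.2% and 42.6% in FL002. The progenitor gate now was the lowest in FL001 and level with the Il2ra gate at the bottom in FL002. Its thinned interval, 37.2% to 46.9% in FL001, overlapped those of the other gates of that library, whereas in FL002 its interval of 35.5% to 43.1% lay below that of the pre-Cd3g gate, 43.8% to 50.4%. Thinning to 1500 UMIs left out no barcode. The progenitor gate of FL001, at 5.37%, was then not the lowest, with the Cd3g gate at 4.28% and the commitment gate at 5.32%. In FL002 it was the lowest, at 2.49%. The medians of the gates were 34 to 39 replication UMIs in FL001 and 18 to 24 in FL002, and 3.67% to 14.1% of the barcodes of a gate lay near the cut, at 13 to 17 UMIs.

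**Figure D2:**
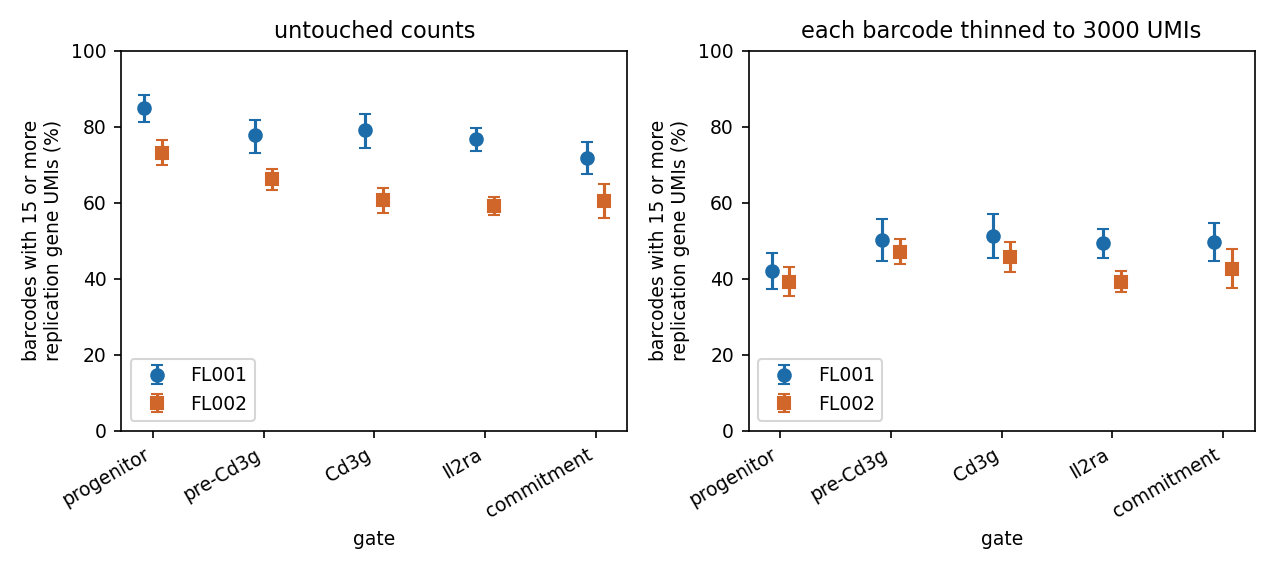
Percent of barcodes with 15 or more UMIs of the 38 genes in each gate, in the counts as deposited (left) and after thinning to 3000 UMIs (right), with circles for FL001, squares for FL002 and bars for 95% exact binomial intervals. Barcodes under 3000 UMIs are left out on the right. The progenitor gate led at 85.0% and 73.2% before thinning and was at 42.0% and 39.2% after it.

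Free RNA in the droplets carried the replication genes too. Barcodes with 1 to 100 UMIs, taken as droplets without a cell, had a replication share of 0.542% (0.527 to 0.558) in FL001 and 0.491% (0.479 to 0.505) in FL002, above the kept barcodes as a whole. A gate's share was therefore read against the other gates and not as expression in itself. Free RNA also held genes that set the gates, with *Cd3g* at 1880 and 1537 CPM and *Il2ra* at 173 and 247 CPM. How many barcodes met a gate through free RNA was not tested.

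No single gene set itself apart along the path. Of the 38 genes, 36 had at least 20 CPM over all kept barcodes in both libraries, and *Pole* and *Ccne2* did not. From the progenitor to the pre-Cd3g gate, 0 of the 36 were at least 1.5 times higher and 0 at least 1.5 times lower in both libraries, while 3.89% and 1.75% of the 5265 genes above the same level were. From the pre-Cd3g to the Cd3g gate the counts were again 0 and 0, against 2.6% higher and 1.9% lower of all genes. Between the Cd3g and Il2ra gates, 0 and 0 genes of the set stood beside 0.114% and 0.114% of all genes, and between the Il2ra and commitment gates 0 and 0 beside 0.741% and 1.23%. Over the whole path from progenitor to commitment, 0 replication genes were past the fold in either direction, against 7.43% of all genes higher and 6.13% lower. With a single library a gene could pass, as *Cdc6* did at 1.51-fold in FL001 and *Pcna* at 1.73-fold in FL002.

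Direction of the 36 genes within these limits leaned upward. From the progenitor to the commitment gate, 24 of 36 replication genes (66.7%) were above 1 in both libraries and 8 below, beside 36.1% and 40.5% of all genes. Their median fold was 1.11 in FL001 and 1.12 in FL002, beside 0.978 and 0.99 over all genes. At the first step 22 of 36 were above 1 in both libraries (61.1%, against 38.2% of all genes), with medians of 1.09 and 1.07. The mitosis genes went the other way at that step, with 34 of 35 below 1 in both libraries, beside 32.7% of all genes. Of the mitosis genes, 7 were at least 1.5 times lower in both, beside 1.75% of all genes. Among the 7 was *Ube2c*, the ubiquitin-conjugating enzyme of the anaphase promoting complex, at 0.446-fold and 0.452-fold. Of the further replication genes, 0 of 43 above 20 CPM passed 1.5-fold at that step, beside 3.89% of all genes higher and 1.75% lower. The upward lean was not seen in these 43. At the first step 13 (30.2%) were above 1 in both libraries and 18 (41.9%) below, with medians of 0.996 and 0.981. Over the whole path 16 (37.2%) were above 1 in both and 14 (32.6%) below, with medians of 0.991 and 1.02. Of the 43, 2 were at least 1.5 times lower in both libraries over the path, beside 6.13% of all genes. They were the exonuclease gene *Exo1* and the ribonuclease H2 subunit gene *Rnaseh2c*.

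A smaller limit, 25% above or 20% below, chosen after the values were seen, separated a few genes. At the first step *Cdc6* and *Chaf1b* were at least 25% higher in both libraries (7.43% of all genes) and 0 at least 20% lower (5.22%). At the step to the Cd3g gate 0 were higher (5.43%) and *Rfc2* was lower (5.22%). Over the whole path *Prim2*, *Rfc3* and *Pold1* were higher (14% of all genes) and *Rfc5* and *Rfc2* lower (14.4%). The share of the 36 genes past this limit was below that of all genes in each case. Set against the fold of the other replication genes together, 0 genes were 1.5 times off in both libraries over the path. *Rfc2* came nearest, at 0.64 and 0.675 of that fold, followed by *Rfc5* at 0.695 and 0.702 and *Pola1* at 0.668 and 0.769. *Rfc3*, at 1.35 and 1.27, and *Prim2*, at 1.28 and 1.29, were the ones above it by at least 25% in both libraries.

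**Figure D3:**
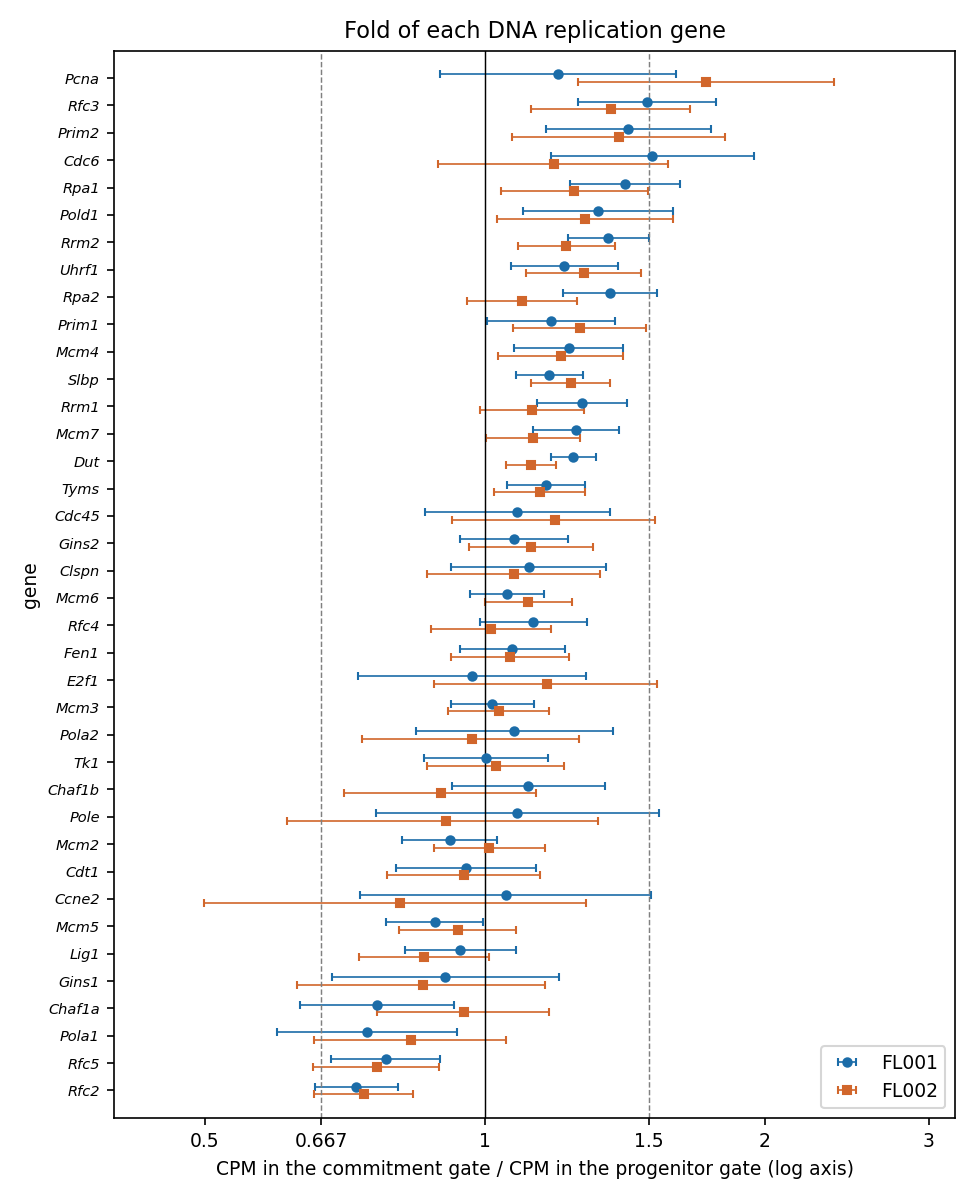
Fold of CPM from the progenitor to the commitment gate for each of the 38 genes on a log axis, with circles for FL001, squares for FL002, bars for 95% exact counting intervals, a solid line at 1 and dashed lines at 1.5-fold either way. *Rfc2* and *Rfc5* lie left of 1 and *Rfc3*, *Prim2* and *Pold1* right of it in both libraries, and 0 genes lie past a dashed line in both.

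The helicase genes together were highest in the pre-Cd3g gate in both libraries. The 6 *Mcm* genes summed to 1069, 1267, 1224, 1177 and 1123 CPM along the gates of FL001 and to 922, 1080, 1075, 1010 and 988 CPM in FL002, 1.19-fold and 1.17-fold from the first to the second gate. *Mcm6* had 249, 298, 285, 270 and 263 CPM in FL001 and 210, 262, 257, 238 and 234 CPM in FL002. *Mcm7*, whose introns hold the microRNAs *Mir25*, *Mir93* and *Mir106b* on the same strand, had 174, 246, 245, 224 and 219 CPM in FL001 and 181, 207, 218, 194 and 204 CPM in FL002. For both genes the progenitor gate was the lowest in each library. *Mcm4* had 110 CPM in the progenitor gate against 135 to 147 CPM in the later gates of FL001, and 98.6 against 119 to 135 CPM in FL002. *Mcm2*, *Mcm3* and *Mcm5* differed by 1.13-fold to 1.2-fold between their highest and lowest gates.

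The loading and firing factors did not move as one. *Cdc6*, the ATPase that recruits the helicase to origins, had 29.4, 37.1, 40.3, 38.4 and 44.5 CPM in FL001 and 29.9, 39.8, 35.7, 32.9 and 35.5 CPM in FL002, and the progenitor gate was the lowest in both. *Cdt1*, its partner, was at 65.7 to 75.6 CPM and at 69.8 to 76.5 CPM, with the progenitor gate the highest in both. The helicase activators *Cdc45*, *Gins1* and *Gins2* summed to 181 to 201 CPM in FL001 and to 171 to 191 CPM in FL002.

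Genes of the clamp loader went both ways. Its subunits open the sliding clamp and place it on DNA. *Rfc2* had 246, 261, 202, 208 and 179 CPM in FL001 and 216, 225, 179, 178 and 160 CPM in FL002, or 0.728-fold (0.657 to 0.806) and 0.742-fold (0.656 to 0.837) over the path. *Rfc5* had 138, 132, 108, 120 and 108 CPM in FL001 and 130, 118, 108, 99.5 and 99.2 CPM in FL002. Both were lowest in the commitment gate in each library. *Rfc3* ran the opposite way, with 62.9, 79.5, 90.9, 85.3 and 94.0 CPM in FL001 and 57.2, 62.7, 64.5, 66.8 and 78.1 CPM in FL002, or 1.5-fold (1.26 to 1.77) and 1.37-fold (1.12 to 1.66). *Rfc4* stayed at 111 to 137 CPM and at 108 to 121 CPM. The clamp itself, *Pcna*, had 24.3, 24.9, 31.5, 29.3 and 29.1 CPM in FL001 and 19.8, 31.5, 31.1, 33.2 and 34.2 CPM in FL002. Its count is uncertain, because the tables also list the processed copy *Pcna-ps2*, with 23.5 and 13.6 CPM, and reads shared by both could have been split or dropped. Free RNA held *Pcna* at 57.3 and 56.0 CPM, above every gate.

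Among the polymerases, subunits of primase and polymerase delta were higher late. *Prim2*, the large primase subunit, had 45.3, 38.7, 51.3, 55.4 and 64.6 CPM in FL001 and 31.8, 34.3, 37.7, 38.4 and 44.3 CPM in FL002. *Pold1*, the catalytic subunit of polymerase delta, had 56.7, 49.2, 68.3, 60.9 and 75 CPM in FL001 and 48.7, 42.8, 47.7, 43.9 and 62.5 CPM in FL002. Both were highest in the commitment gate in each library. *Pola1*, the catalytic subunit of polymerase alpha, had 52.4, 57.3, 36.1, 50.2 and 39.2 CPM in FL001 and 53.2, 47.1, 40.9, 47.6 and 44.3 CPM in FL002, lowest in the Cd3g gate in both. *Prim1*, *Pola2* and *Pole* (the catalytic subunit of polymerase epsilon) were at 80.7 to 107 CPM, 35.4 to 49.2 CPM and 14.3 to 20.5 CPM over all gates and libraries.

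Genes for single-strand binding and for nucleotides had the largest summed folds of the 10 roles in FL001, but not in FL002, where chromatin and histone supply came first. *Rpa1*, *Rpa2* and *Clspn*, which coat exposed DNA and relay checkpoint signals, summed to 1.33-fold and 1.13-fold from progenitor to commitment. *Rpa1* had 99.3, 92.6, 135, 112 and 140 CPM in FL001 and 69.7, 84.5, 97.0, 82.4 and 87.0 CPM in FL002. The 5 nucleotide genes summed to 1274, 1500, 1636, 1590 and 1572 CPM in FL001 and to 1207, 1324, 1407, 1293 and 1367 CPM in FL002. *Rrm2*, the regulatory subunit of ribonucleotide reductase, which makes deoxynucleotides, had 185, 238, 251, 261 and 251 CPM in FL001 and 161, 195, 227, 195 and 197 CPM in FL002, with the progenitor gate the lowest in both. *Dut*, which removes dUTP, gave the most UMIs of the set, with 624, 711, 826, 763 and 778 CPM in FL001 and 619, 691, 715, 666 and 695 CPM in FL002. *Tyms* and *Tk1*, the thymidylate and thymidine enzymes, were at 185 to 267 CPM and 89.1 to 102 CPM, and *Rrm1*, the catalytic partner of *Rrm2*, at 146 to 214 CPM.

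*Fen1* and *Lig1*, which trim and join lagging strand fragments, summed to 1.01-fold and 0.966-fold over the path. The 4 chromatin and histone genes summed to 1.12-fold and 1.17-fold. *Slbp*, which binds the ends of histone transcripts, had 286 CPM in the progenitor gate and 335 CPM in the commitment gate of FL001, and 240 and 296 CPM in FL002. *Chaf1b*, a subunit of the histone loading complex CAF-1, was highest in the pre-Cd3g gate, at 82.9 and 67.5 CPM against 58.3 and 50.8 CPM in the progenitor gate, and the annotated gene *Gm49617* overlaps it on the same strand. Its partner *Chaf1a* was at 53.7 to 70.4 CPM in FL001 and 55.8 to 64.3 CPM in FL002. *Uhrf1*, which keeps DNA methylation in place behind the fork, was highest in the commitment gate, at 139 and 142 CPM. *E2f1* was at 23.4 to 37.6 CPM and *Ccne2* at 11.8 to 20.9 CPM. Across the set, 15 genes were lowest in the progenitor gate in both libraries and 3 highest there in both. The median gene differed 1.29-fold between its highest and lowest gate in FL001 and 1.2-fold in FL002, and 0 genes differed by more than 2-fold. No share over all genes stands beside these counts, so they describe the set only and do not set it apart.

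The flat total covered a difference that appeared when barcodes were compared at like mitosis content. Each barcode was thinned to 1500 UMIs and put in a class by its UMIs of the 35 mitosis genes. Over all kept barcodes, the replication share was 0.452% at 0 to 2 mitosis UMIs, 0.594% at 3 to 5, 0.583% at 6 to 9 and 0.439% at 10 or more in FL001. In FL002 it was 0.398%, 0.535%, 0.504% and 0.375%. The share thus peaked at middle mitosis content in both libraries. The class with 10 or more held 24.1% (20.1 to 28.4) of the progenitor gate in FL001 and 28.3% (25.1 to 31.7) in FL002, against 14.2% to 19.4% of the other gates.

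Within the class of 10 or more mitosis UMIs, progenitor barcodes had a much lower replication share than commitment barcodes. It was 0.343% (0.333 to 0.355) against 0.504% (0.489 to 0.52) in FL001 and 0.315% (0.306 to 0.325) against 0.448% (0.431 to 0.465) in FL002, or 1.47-fold and 1.42-fold. The pre-Cd3g gate lay between them, at 0.424% and 0.366%. The Cd3g and Il2ra gates were near the commitment gate in FL001, at 0.493% and 0.498% with overlapping intervals. In FL002 they were below it, at 0.407% and 0.409%, and above the progenitor and pre-Cd3g gates. At 0 to 2 mitosis UMIs the order was reversed, with 0.472% in the progenitor and 0.44% in the commitment gate of FL001 and 0.455% and 0.373% in FL002, or 0.932-fold and 0.819-fold. Mitosis content was not equal in this class. Its means were 0.958 UMIs in progenitor and 0.639 in commitment barcodes of FL001, and 1.04 and 0.78 in FL002. Without barcodes with at least 5 UMIs of defining markers of other lineages the folds were 0.974 and 0.874. In barcodes of 6000 to 12000 UMIs only they were 0.871 and 0.88, a check also chosen after the values were seen. The means there were 1.12 and 0.863 mitosis UMIs in FL001 and 1.36 and 1.35 in FL002. This left 82 progenitor and 73 commitment barcodes in FL001, and 33 and 26 in FL002. Averaged over the classes at the weights of the whole library, the path from progenitor to commitment was 1.08-fold and 1.02-fold.

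**Figure D4:**
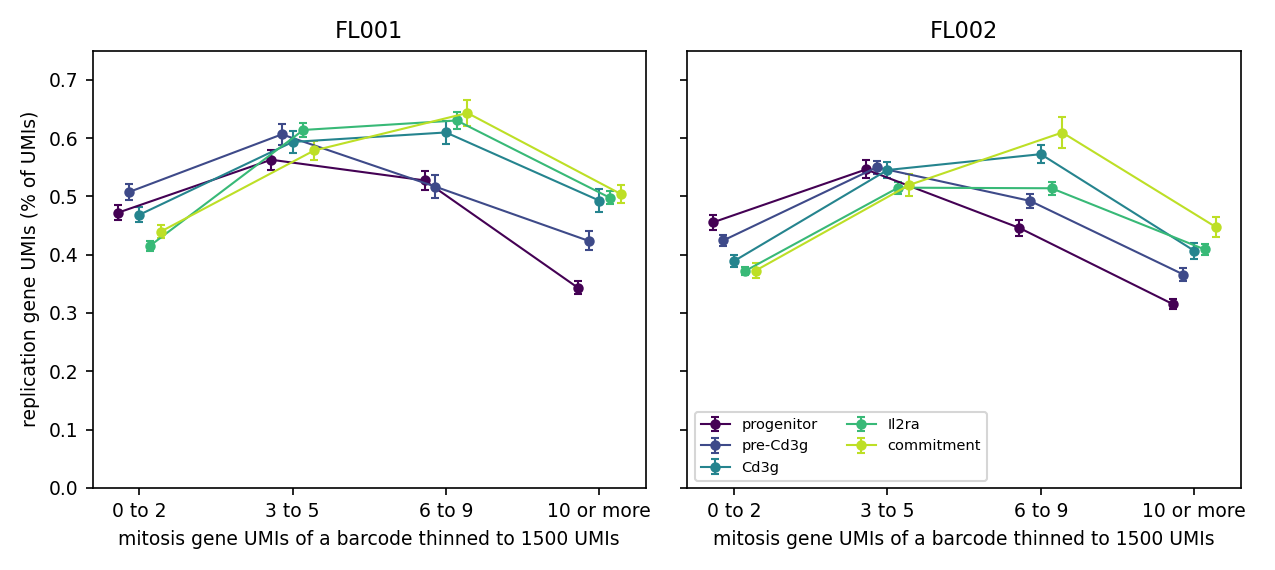
Replication gene UMIs as a percent of UMIs in 4 classes of mitosis gene content, for each gate (colours) in FL001 (left) and FL002 (right), with bars for 95% exact Poisson intervals. At 10 or more mitosis UMIs the progenitor gate was lowest, at 0.343% and 0.315%, and the commitment gate highest, at 0.504% and 0.448%, while at 0 to 2 the progenitor gate was above the commitment gate in both libraries.

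The difference at 10 or more mitosis UMIs kept its direction under other selections, all chosen after the values were seen. Without barcodes with at least 5 UMIs of defining markers of other lineages it was 1.47-fold and 1.48-fold, with 47 and 126 progenitor barcodes left. In barcodes of 6000 to 12000 UMIs only it was 1.47-fold and 1.48-fold. Without barcodes that met both gates, or the progenitor and Il2ra gates, it was 1.5-fold and 1.42-fold. The mean mitosis content in the class was 15.4 UMIs in progenitors and 15.3 in commitment barcodes of FL001, and 14.1 and 14 in FL002. In the narrower class of 10 to 14 mitosis UMIs the fold was smaller, at 1.42 and 1.31. At 15 to 19 it was 1.46 and 1.7, from 30 progenitor and 23 commitment barcodes in FL001 and 63 and 31 in FL002. At 20 or more it was 1.69 in FL001, from 18 and 15 barcodes, and was not computed in FL002. With the same removal by defining markers the fold at 10 to 14 was 1.34 and 1.35. Barcodes with fewer than 5 UMIs of these markers remained, and a wider removal was not made within the classes.

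Many genes of the set took part. At 10 or more mitosis UMIs, 11 of 36 were at least 1.5 times higher in the commitment than in the progenitor gate in both libraries (8.19% of all genes) and 0 at least 1.5 times lower (6.38%). The 11 were *Prim2*, *E2f1*, *Tyms*, *Slbp*, *Pold1*, *Rrm1*, *Rpa1*, *Tk1*, *Rrm2*, *Mcm4* and *Uhrf1*. The minimum of 20 CPM was applied over all kept barcodes and not within the class. *E2f1* rested on only 8 progenitor and 14 commitment UMIs in FL001 and on 13 and 15 in FL002. In all, 30 of 36 (83.3%) were above 1 in both libraries, beside 36.0% of all genes, and the median fold was 1.4 in FL001 and 1.41 in FL002, beside 1.01 and 1.01. *Rrm2* had 119 CPM in progenitor and 247 CPM in commitment barcodes of this class in FL001, and 79.9 and 223 CPM in FL002. *Mcm4* had 47.2 and 110 CPM, and 47.0 and 96.0 CPM. *Tyms* had 189 and 341 CPM, and 178 and 277 CPM. All 3 were higher in the commitment gate in both libraries.

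At 0 to 2 mitosis UMIs, 0 genes of the set were at least 1.5 times higher (7.96% of all genes) and *Rfc5* and *Rfc2* were lower (7.39%). Here 21 of 36 (58.3%) were below 1 in both libraries, beside 39.8% of all genes, with medians of 0.922 and 0.783. *Rfc2* had 261 CPM in progenitor and 154 CPM in commitment barcodes of FL001, and 214 and 138 CPM in FL002. At 3 to 9 mitosis UMIs *Rfc3* was higher (7.16% of all genes) and 0 lower (6.15%), with medians of 1.13 and 1.14. *Rfc2* was below 1 in all 3 classes in both libraries, from 0.589-fold to 0.886-fold.

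The genes also differed in how they followed mitosis content itself. Over all kept barcodes, 9 of the 38 had a level at 10 or more mitosis UMIs at least 20% below that at 0 to 2 in both libraries, and 7 at least 25% above. Among the 36 above 20 CPM these were 8 and 7, beside 4.43% and 7.39% of all genes. The lower ones were *Cdc6*, 4 of the helicase genes (*Mcm2*, *Mcm3*, *Mcm4* and *Mcm6*), the G1 to S regulators *E2f1* and *Ccne2*, and the chromatin genes *Chaf1b* and *Uhrf1*. *Ccne2*, which starts S phase with Cdk2, had 19.4, 26.6, 17.5 and 6.27 CPM over the 4 classes in FL001 and 18.6, 24.3, 14.1 and 3.1 CPM in FL002. With 17.7 and 15.5 CPM over all kept barcodes it was under the minimum of 20 CPM, so the size of its fold is uncertain. *Cdc6* had 41.6, 48.4, 39.9 and 16.5 CPM, and 37.3, 45.0, 35.9 and 17 CPM. *E2f1* had 29.2, 36.7, 28.8 and 14 CPM, and 38.8, 47.2, 33.4 and 14.7 CPM. All 3 were highest at 3 to 5 mitosis UMIs and lowest at 10 or more.

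The higher ones were *Rrm1*, *Tyms*, *Tk1*, *Cdc45*, *Rfc4*, *Rfc5* and *Pold1*. *Rrm1* had 138, 218, 222 and 234 CPM in FL001 and 106, 168, 175 and 190 CPM in FL002. *Tyms* had 157, 273, 332 and 282 CPM, and 127, 224, 245 and 213 CPM. *Cdc45* had 27.7, 62.1, 54.8 and 43.9 CPM, and 27.4, 57.9, 56.0 and 41.6 CPM. *Rrm1* was highest in the last class in both libraries, *Tyms* at 6 to 9 and *Cdc45* at 3 to 5. Depth also differed between the classes, with a median of 5962 UMIs at 0 to 2 and 9878 at 10 or more in FL001 and of 3589 and 6324.5 UMIs in FL002, and its part in these differences was not tested.

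**Figure D5:**
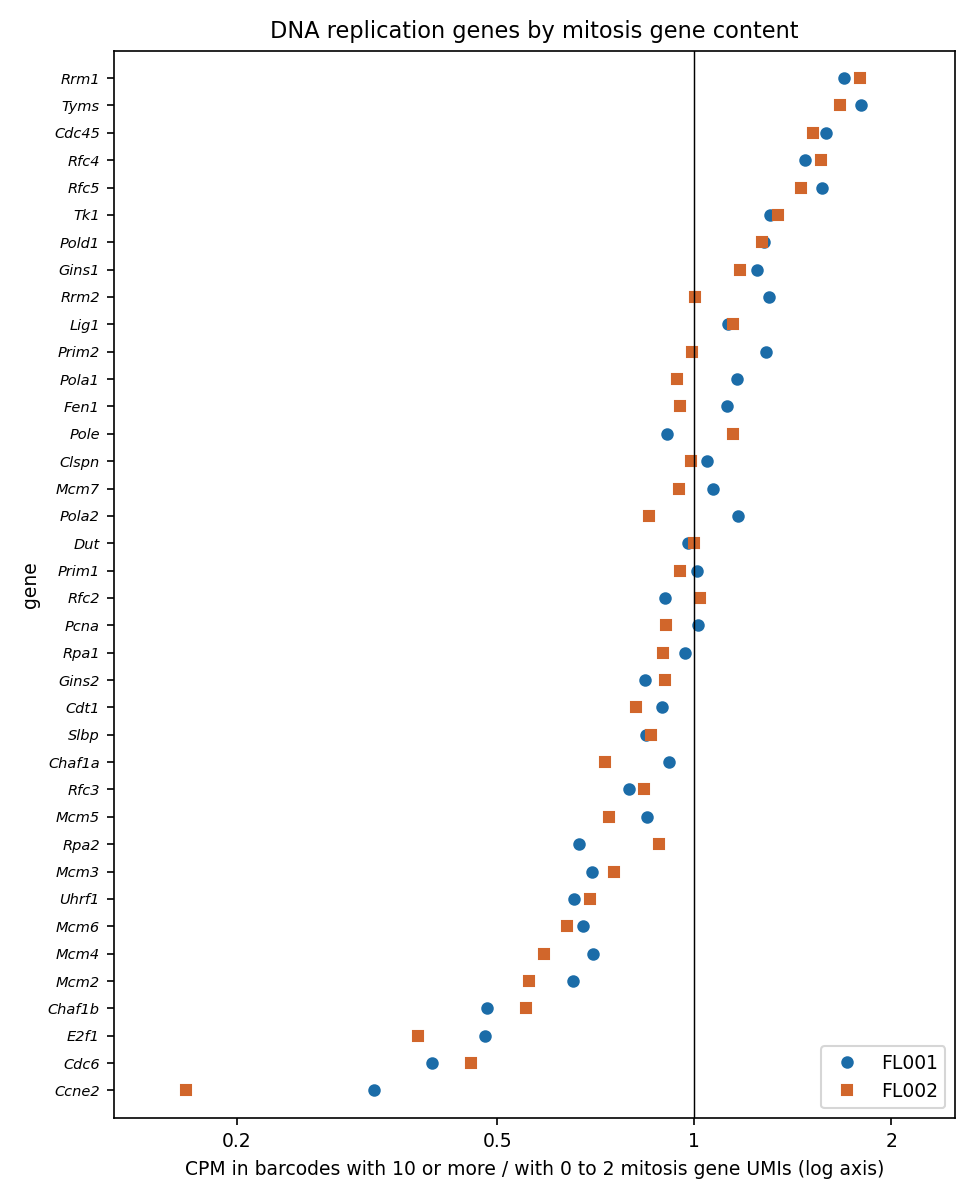
Level of each of the 38 genes at 10 or more mitosis gene UMIs over its level at 0 to 2, on a log axis, with circles for FL001 and squares for FL002. *Ccne2*, at 0.324 and 0.167, and *Cdc6* stand at the bottom of the order, which uses both libraries, and *Rrm1*, at 1.69 and 1.79, and *Tyms* at its top.

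Promoters of the replication genes were searched for 4 exact words of letters that E2F proteins are known to bind. RefSeq promoters of the GRCm38.p6 assembly, from 250 bases before to 50 after each transcript start, were matched by symbol for 31 of the 38 genes. Not matched were *Ccne2*, *Rfc2*, *Gins1*, *Gins2*, *Mcm4*, *Pole* and *Prim2*. TTTGGCGC, TTTCCCGC, TTTCGCGC or TTTGCCGC, searched on both strands and able to overlap one another, was found in 12 of the 36 listed promoters of these genes (33.3%), 1 for each of 12 genes, and in 2.26% of all 32851 promoters. The 12 were *Cdc6*, *Cdt1*, *Clspn*, *Lig1*, *Mcm3*, *Mcm5*, *Mcm6*, *Mcm7*, *Pola1*, *Pold1*, *Rfc3* and *Uhrf1*. CCAAT, the letters of the factor NF-Y, was in 20 of the 36 promoters (55.6%), of 18 genes, and in 37.4% of all promoters. Of the matched genes that were lower in mitosis-rich barcodes 4 of 7 had one of the E2F motifs, of those that were higher 1 of 7, and of the others 7 of 17. In the listed windows *Mcm2*, *Chaf1b* and *E2f1*, lower in mitosis-rich barcodes, hold 0 matches. The window listed for *E2f1* appears to lie within the coding part of the gene. *E2f1* is counted among the 7 lower genes, but its 0 matches do not describe the promoter upstream of that window. No test was made of these counts, and a match is a description of letters and not of binding. Variants of the 4 words were not searched, so 0 matches does not mean that a window lacks an E2F site.

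The 7 promoters below are shown for the different combinations. There are 3 of genes lower in mitosis-rich barcodes with a match to the searched words and 1 of a gene lower there without a match. Of genes higher there, 1 is shown with a match and 2 without a match. They are *Cdc6* (chr11:98907901-98908200, plus strand), *Mcm6* (chr1:128359656-128359955, minus strand, where 2 of the 3 matches overlap), *Uhrf1* (the second of 2 listed starts, chr17:56304063-56304362, plus strand), *Mcm2* (chr6:88898731-88899030, minus strand), *Pold1* (chr7:44548766-44549065, minus strand), *Rrm1* (chr7:102441445-102441744, plus strand) and *Tyms* (chr5:30073576-30073875, minus strand), each written 5′ to 3′ along its gene, with the E2F motifs in capitals.
Cdc6: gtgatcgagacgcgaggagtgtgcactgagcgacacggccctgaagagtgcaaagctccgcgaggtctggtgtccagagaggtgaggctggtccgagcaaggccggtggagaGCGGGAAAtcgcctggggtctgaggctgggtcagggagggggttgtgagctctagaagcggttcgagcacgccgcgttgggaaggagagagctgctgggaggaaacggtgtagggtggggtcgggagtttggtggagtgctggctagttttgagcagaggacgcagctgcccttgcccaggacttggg
Mcm6: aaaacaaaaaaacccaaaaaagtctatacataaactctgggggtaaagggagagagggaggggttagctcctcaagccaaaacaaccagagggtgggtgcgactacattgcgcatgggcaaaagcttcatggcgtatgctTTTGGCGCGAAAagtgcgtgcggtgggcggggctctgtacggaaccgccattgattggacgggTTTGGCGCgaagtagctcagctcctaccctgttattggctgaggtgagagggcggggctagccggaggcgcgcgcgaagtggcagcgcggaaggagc
Uhrf1: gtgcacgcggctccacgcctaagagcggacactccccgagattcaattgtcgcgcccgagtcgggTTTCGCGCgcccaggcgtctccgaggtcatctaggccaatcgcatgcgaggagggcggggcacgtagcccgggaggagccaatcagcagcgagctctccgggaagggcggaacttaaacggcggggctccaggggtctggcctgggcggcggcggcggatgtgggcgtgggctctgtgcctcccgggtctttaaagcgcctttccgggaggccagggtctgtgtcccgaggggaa
Mcm2: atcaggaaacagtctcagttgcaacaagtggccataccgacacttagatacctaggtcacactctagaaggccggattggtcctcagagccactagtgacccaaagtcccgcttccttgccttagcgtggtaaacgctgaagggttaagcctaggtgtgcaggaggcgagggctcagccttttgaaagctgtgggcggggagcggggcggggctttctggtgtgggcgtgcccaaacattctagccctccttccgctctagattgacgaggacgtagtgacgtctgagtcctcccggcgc
Pold1: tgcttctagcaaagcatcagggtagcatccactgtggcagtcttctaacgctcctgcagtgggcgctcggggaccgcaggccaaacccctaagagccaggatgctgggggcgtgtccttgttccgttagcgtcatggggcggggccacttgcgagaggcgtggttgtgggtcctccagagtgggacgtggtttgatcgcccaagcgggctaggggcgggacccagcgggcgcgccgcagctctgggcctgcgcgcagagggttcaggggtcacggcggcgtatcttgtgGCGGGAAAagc
Rrm1: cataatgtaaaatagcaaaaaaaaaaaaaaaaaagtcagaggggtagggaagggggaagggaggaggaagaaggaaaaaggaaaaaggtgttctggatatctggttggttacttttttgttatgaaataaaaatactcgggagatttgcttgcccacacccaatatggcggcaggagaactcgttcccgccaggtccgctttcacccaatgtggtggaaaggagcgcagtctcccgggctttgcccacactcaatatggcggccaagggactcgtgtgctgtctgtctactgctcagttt
Tyms: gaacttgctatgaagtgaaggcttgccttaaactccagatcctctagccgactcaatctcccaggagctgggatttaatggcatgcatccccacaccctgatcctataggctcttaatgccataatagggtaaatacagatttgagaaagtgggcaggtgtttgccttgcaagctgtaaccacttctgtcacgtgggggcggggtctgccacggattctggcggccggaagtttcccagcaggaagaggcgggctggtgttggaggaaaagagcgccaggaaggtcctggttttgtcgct

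The first matched base lies 138 bases before the start in *Cdc6*, 110, 106 and 47 bases before it in *Mcm6*, and 185 bases before it in *Uhrf1*, whose levels at 10 or more mitosis UMIs were 0.398 and 0.455, 0.676 and 0.639, and 0.654 and 0.692 of those at 0 to 2. In *Pold1*, at 1.28 and 1.27 of its level, the match lies inside the transcript at position 40. *Rrm1* and *Tyms*, at 1.69 and 1.79 and at 1.8 and 1.67, hold 0 matches in these windows, and so does *Mcm2*, at 0.653 and 0.56.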

How the data were processed

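The authors prepared the libraries with 10X Chromium, and they deposited the counts of UMIs for each gene in every droplet barcode, neither normalized nor restricted to cells. The submitters' processing notes name the build mm9, and the CellRanger version and annotation are not given in the sources used here. FL001 held 16320118 UMIs and FL002 22651783. Members, lists and gates were chosen with earlier results of these data known, and classes of mitosis content and the limit of 25% after the values were seen.

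Gates, summed shares and CPM (UMIs of a gene over all UMIs of the gate) were computed per library with Python 3.11.15, numpy 2.4.6, scipy 1.17.1, pandas 2.3.3 and, for Scrublet, scanpy 1.11.5. Intervals are 95% exact Poisson for sums, conditional binomial for folds and Clopper-Pearson for shares of barcodes. A gene was counted as past the fold when its CPM differed at least 1.5-fold the same way in both libraries, with at least 20 CPM in each. A gene was to be set apart when its fold differed 1.5 times from that of the other members together, and 0 did. Thinning used seed 1. At 3000 UMIs it left out shallower barcodes. Doublets were not removed in the main values, Scrublet called 7 and 1 barcodes (0.392% and 0.0244%), its calls were not used, and removal of the 89 and 205 barcodes with the highest scores was an alternative. The count rule was tried on simulated counts with counting error only, without spread between barcodes and without shared barcodes. The genes raised there had larger folds than any gene of the set between whole gates, so the trial does not cover smaller folds. It used the size of whole gates and does not cover the smaller classes of mitosis content. The thinning was tried on part of the FL001 barcodes. Of the 38 genes, 21 overlap another annotated gene in GENCODE M21 and 10 do so on the same strand, so their counts could include other reads. Promoters come from RefSeq on GRCm38.p6, not the build of the counts, and no gene coordinates of the counts are given.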

Additional observations from a re-analysis of the deposited data

How the results depend on the processing

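The summed share, the share of barcodes with at least 15 replication gene UMIs and the counts of genes past the fold were recomputed under 18 other settings, which gave 275 values. Of these, 175 stayed within counting error or within the same count, 98 moved and 2 turned. A fold was counted as turned only where its main interval left out 1. Folds whose interval took in 1 also crossed it. The commitment over Il2ra step of FL001, below 1 in the main values, was above 1 under 4 of 11 settings. The Cd3g over pre-Cd3g step of FL002, above 1 in the main values, stayed above it under 9 of 11. From the progenitor to the pre-Cd3g gate and from the progenitor to the commitment gate the summed share was above 1-fold under 11 of 11 settings in both libraries. The ranges were 1.02 to 1.22 in FL001 and 1.01 to 1.18 in FL002 for the first, and 1.04 to 1.16 and 1.02 to 1.11 for the second. Settings added after the data were seen were the 5-UMI lineage removal, the removal of shared barcodes and the equal mitosis content, together with the checks within mitosis classes. Removing shared barcodes, or the 5% of barcodes with the highest Scrublet scores, moved none of its 25 values. Dropping the minimum CPM, or scaling by the median fold, left the counts of genes at 0. A fold of 2 or a minimum of 50 CPM could only leave counts of 0 at 0. Their 5 values each are among the 175 and say nothing of stability. The cause of the changes below was not tested except where fewer UMIs per barcode made them.

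With each barcode in its latest gate only, the Il2ra over Cd3g step of FL001 turned to 1.02-fold, its commitment over Il2ra step was 0.976-fold and its Il2ra gate had 81.2% of barcodes at 15 or more. Gates set on barcodes thinned to 1500 UMIs held other barcodes. Their progenitor gate had 112 and 204 barcodes, against 428 and 724 in the main gates. Their pre-Cd3g gate, set by few UMIs, had 993 and 2308, against 381 and 1134. With these gates, the first step was 1.22-fold in FL001 and 1.18-fold in FL002, Il2ra over Cd3g 0.944-fold and 0.956-fold, commitment over Il2ra 0.975-fold and, turned, 0.96-fold, and the whole path 1.16-fold in FL001. Shares at 15 or more were then 72.3%, 82.7%, 68.4% and 55.1% in the progenitor, pre-Cd3g, Il2ra and commitment gates of FL001 and 52.5%, 70.6%, 52.5% and 48.0% in those of FL002. There 1 gene was past 1.5-fold at the first step (*Rrm2*) and 2 over the path (*Prim2* and *Rpa1*). The share of all genes was not computed under this setting, so these counts cannot be set against it.

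Without the 1310 and 2035 barcodes with at least 3 UMIs of other-lineage markers, the steps in order were 1.02, 1.09, 0.94 and 1.03 and the path 1.08 in FL001. In FL002 the first was 1.03, the third 0.963 and the last 1.09. Shares at 15 or more were 76.1%, 53.3%, 65.3%, 60.9% and 59.0% in FL001 and 61.0%, 53.1%, 49.8%, 48.2% and 55.6% in FL002. Over the path 2 genes passed (*Prim2* and *Pold1*), and the share of all genes under this setting was not computed. With the 5-UMI removal, FL001 had steps of 1.08, 1.06 and, last, 1.01. Shares in its first 2 gates were 76.7% and 72.1%, and 63.8% and 63.2% in FL002.

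With at least 3000 UMIs the path was 1.11-fold in FL002. Shares were 85.3%, 83.9% and 77.0% in the pre-Cd3g, Cd3g and commitment gates of FL001 and 80.2%, 80.0%, 76.6%, 70.8% and 75.7% in FL002. With mitochondrial UMIs at most 5% the path was 1.14-fold and 1.11-fold, with 84.5%, 81.7% and 79.1% in the last 3 gates of FL001 and 69.9%, 67.0%, 62.6% and 66.9% in the last 4 of FL002. As a mean over barcodes, the first step was 1.06-fold and 1.03-fold and the path 1.04-fold and 1.02-fold, with steps of 0.982 and 0.967 to the Cd3g and Il2ra gates of FL002. Without *Dut*, *Slbp* and *Mcm6* the path was 1.09-fold in FL001 and the first step 1.07-fold in FL002. At equal mitosis content the first step was 1.08-fold and 1.01-fold, the path 1.08-fold and 1.02-fold, and commitment over Il2ra 1.01-fold in FL001.

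Thinning to 1500 UMIs left 5.37%, 8.14%, 4.28%, 7.05% and 5.32% of barcodes at 15 or more in FL001 and 2.49%, 3.09%, 4.7%, 3.12% and 5.39% in FL002. Thinning to 3000 UMIs gave 42.0%, 50.1%, 51.3%, 49.3% and 49.6%, and 39.2%, 47.1%, 45.7%, 39.2% and 42.6%. With the limit at 25% above or 20% below, 2, 1 and 5 genes passed at the first step, the second step and over the path. No test paired by library was made, because there are only 2 libraries. Gates were compared within each library, and no library could be left out. Genes under about 20 CPM had too few UMIs for folds of this size to be read.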
